A study of Mus musculus with 14 samples.

Results

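The 36 genes described here carry glucose from uptake to pyruvate and lactate or through the pentose phosphate pathway, together with 4 genes of the hypoxia response that is tied to glycolysis. They were chosen by gene symbol and role, among 48363 genes with values in the deposited table. The rule holds no measured value, but earlier results of these data were known when the genes were chosen. By role, they are 4 transporters of glucose and lactate, 9 genes of upper glycolysis, 2 enzymes that set the level of fructose-2,6-bisphosphate, 6 genes of lower glycolysis, 6 that decide the fate of pyruvate, 5 of the pentose phosphate pathway and the 4 hypoxia genes. RNA-seq was done on CD4+ FOXP3-YFP+ regulatory T cells (Tregs) sorted from pooled spleen and lymph nodes of untreated mice. Tregs of miR-15/16 fl/fl animals with Foxp3-Cre (cKO Tregs, 5 libraries), in which both miR-15/16 clusters are deleted, were compared with bulk Tregs of miR-15/16 wt/wt animals with Foxp3-Cre (WT Tregs, 4 libraries), and CD25lo WT Tregs (2 libraries) with CD25hi WT Tregs (3 libraries) from mice of that same control genotype. Every group carried the Foxp3-Cre-YFP allele, so Cre acted in cells that had expressed Foxp3, the lineage factor by whose reporter the cells were sorted. The study used adult mice of both sexes at several ages. Which age applies to these libraries, and the number of mice per library, are not given in the sources used here. In the main test, p-values set a difference of group means against the spread between libraries, estimated over the 4 groups together.

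Glycolysis splits glucose into pyruvate in the cytosol and yields ATP and NADH, and the pentose phosphate pathway branches from it after the hexokinase step to supply NADPH and ribose. Activated effector T cells are known for a strong rise in glycolysis driven by mTOR, MYC and HIF-1α, whereas Tregs are known to rely more on oxidative metabolism, with FOXP3 restraining MYC and glycolysis and with glycolytic flux rising when Tregs proliferate or migrate. miR-15/16 bind target mRNAs through a seed shared by the family and lower their stability and translation.

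The sequences of the miRNAs deleted in cKO Tregs are shown first, because a transcript of this pathway that is a direct target would carry the complement of their seed. The mature miRNAs, from RefSeq on GRCm38.p6, come from clusters at chr14:61631936-61632096 (minus strand, miR-16-1 and miR-15a) and chr3:69009775-69009939 (plus strand, miR-15b and miR-16-2), and the capitals mark the seed, bases 2 to 8, which is the same in each.
miR-15a-5p: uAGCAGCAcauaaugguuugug
miR-15b-5p: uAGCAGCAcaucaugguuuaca
miR-16-5p: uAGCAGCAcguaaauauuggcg

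A match to this seed was either of the 7-mers TGCTGCT and GCTGCTA, or the 8-mer TGCTGCTA that joins them, on the transcript strand of the longest 3′ UTR annotated on GRCm38. Of the 36 genes, 11 held a match (30.6%), compared with 27.8% of 12731 genes tested that had such a UTR. Pfkl, the liver-type subunit of phosphofructokinase, and Egln3, a prolyl hydroxylase that marks HIF-1α for degradation, were the members with 2 matches. Slc2a3, a neuronal and lymphocyte glucose transporter, Pfkp, the platelet-type phosphofructokinase subunit, and Egln3 held an 8-mer. The sites are printed with the match in capitals, read 5′ to 3′ on the transcript strand. They are shown for the phosphofructokinase genes because Pfkl was the member that rose in cKO Tregs, and for Egln3 and Hk2 because of their values below. For Egln3 only the 8-mer is printed, and its other match is a 7-mer at chr12:54180122-54180151.
Pfkl, chr10:77988061-77988090, minus strand: gggggtctactgTGCTGCTctggggctctt
Pfkl, chr10:77987310-77987339, minus strand: tcttacgtgagcTGCTGCTgggtccatcct
Pfkp, chr13:6580218-6580247, minus strand: atggctgtgagcTGCTGCTAgttggaagct
Egln3, chr12:54179439-54179468, minus strand: caccctcgtttcTGCTGCTActtccccaac
Hk2, chr6:82725165-82725194, minus strand: tctctctgctaaTGCTGCTttgtgtgatct

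Eno3 and Pdha1, which fell in cKO Tregs, held no match in this window. The median log2 fold change of cKO against WT Tregs was -0.02 over the 11 members with a match and -0.04 over the 25 without, and over all genes tested it was 0.06 with and 0.01 without a match. A match is a description of the letters and does not show that a site is bound.

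The libraries held 30055573 to 35226685 reads in genes. Foxp3 was present in every group, at group means of 15422 to 22851 normalized counts (reads divided by a size factor per library). Xist, the RNA that coats the silenced X chromosome in female cells, was high in the 5 cKO libraries and in WT replicate 3 (34038 to 43337 normalized counts) and at most 64.6 in the other 3 WT libraries and the 5 CD25-sorted libraries, so sex and genotype were nearly confounded. Of the members, Pgk1, Pdha1 and G6pdx lie on the X chromosome. Averaged over 24 immediate early and stress genes, the log2 level ranged from 12.42 to 13.69 among cKO libraries and from 11.62 to 12.15 among CD25-sorted ones, while WT replicate 4, at 11.84, was apart from the other WT libraries at 13.48 to 13.72. Myeloid markers (12 genes, S100a8 and S100a9 at 0 in every cKO library) summed to 2898 to 7210 normalized counts in cKO, 2830 to 9048 in WT and 1993 to 2974 in sorted libraries, and 0 of the 10 tested passed in either comparison (4 were lower in cKO Tregs at an unadjusted p under 0.05 from limma).

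The genes of the pathway were expressed at very different levels. As normalized counts per kb of exon, averaged over the 14 libraries, the most abundant were Aldoa, the main aldolase of lymphocytes, at 3027, Pkm, which encodes the pyruvate kinase isoforms PKM1 and PKM2, at 2851, and Ldha, the lactate dehydrogenase subunit that favours lactate production, at 2796. These were followed by Gpi1, the isomerase of glucose-6-phosphate, at 1831 and Hif1a, the oxygen-regulated subunit of HIF-1, at 1738. The lowest were Bnip3, a HIF target that acts in mitophagy, at 18.1, Pgam1, a phosphoglycerate mutase, at 39.7, and Pfkfb4, at 46.2 per kb. The ubiquitous hexokinase Hk1 was at 1052 and the inducible hexokinase Hk2 at 61.6 per kb. The glucose transporters Slc2a1 and Slc2a3 were at 549.9 and 548.5 per kb. The length used was that of all annotated exons, 3.506 kb for Slc2a1 and 7.245 kb for Slc2a3. Their longest protein-coding transcripts have 3260 and 3959 bases, and Slc2a3 had more normalized counts than Slc2a1 (means 4294 and 1972 in cKO Tregs). The order of the levels therefore depends on the length used.

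Some of these levels cannot be compared between genes. Of all 50-base words, the length of the reads, in their transcripts, 82.5% for Gapdh, 72.2% for Eno1, 68.0% for Pgk1, 48.9% for Bnip3 and 41.5% for Pgam1 also occurred in transcripts of other annotated loci, and in all 8 members had over 20%. How the authors counted reads that map to several places is not given in the sources used here, so these counts are uncertain, and the low level of Pgk1 and Pgam1, enzymes needed for glycolysis in every cell, is given with that limit. Pfkl, Eno3, Hk2 and Pdha1, on which the comparisons below turn, shared 0.1%, 0.0%, 0.0% and 0.5% of words with loci elsewhere. However, 16.5% of the words of Pdha1, and 17.1% of those of Pfkp, lay in annotated genes that overlap them. Aldoa was listed in 2 rows, of which the second held at most 21.3 normalized counts and was left out.

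**Figure D1:**
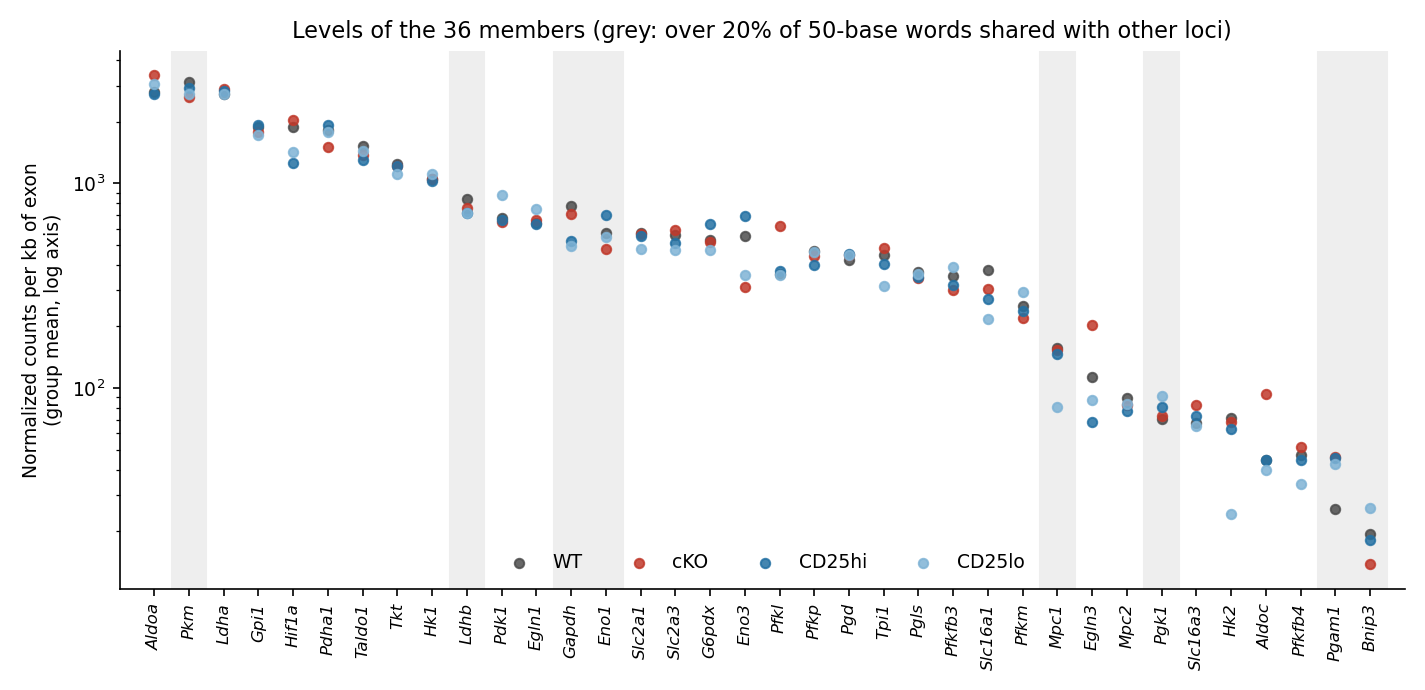
Level of each of the 36 genes as normalized counts per kb of exon on a log axis, with 1 point per group (mean of 4 WT, 5 cKO, 3 CD25hi and 2 CD25lo libraries) and genes ordered by their mean over all libraries. Grey columns mark the 8 genes with over 20% of 50-base words in common with other loci, and the order runs from Aldoa at 3027 to Bnip3 at 18.1.

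The first comparison asked which of these genes changed in Tregs that lack miR-15/16. Pfkl rose 1.72-fold, Eno3, the muscle-type enolase, fell 1.75-fold, and Pdha1, the catalytic E1α subunit of pyruvate dehydrogenase, fell 1.22-fold. Differences were tested with limma on log2(normalized count + 1) over the 16241 genes that reached 10 normalized counts in 2 or more libraries, and a gene passed at a Benjamini-Hochberg adjusted p under 0.05. All 36 members entered this test. In bulk libraries of this kind, fewer cells that express a gene and less of its RNA per cell cannot be told apart. With 1 member higher and 2 lower, the members were near the background, as 2.04% of all genes tested passed as higher and 1.48% as lower. Among the 5830 genes with a mean of 1000 or more normalized counts, to which 24 of the members belong, 7.72% passed in either direction. The median log2 fold change was -0.04 over the 36 members and 0.05 over all genes tested, with 16 members above 0 and 20 below.

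Pfkl (chr10:77986947-78010083, minus strand, GRCm38) was at 4587.2, 4167.4, 4173.6, 3846.8 and 3978.3 normalized counts among the 5 cKO libraries and at 2308.5, 2422.1, 2151.0 and 2786.1 in the 4 WT libraries. The lowest cKO library was above the highest WT library, as it was above all 5 CD25-sorted WT libraries, at 2201.3 to 2710.9. The means were 4151 ± 279.9 (SD, n = 5) and 2417 ± 270.1 (SD, n = 4), a log2 fold change of 0.78 ± 0.09 (SE, limma adjusted p = 4.2e-05). Phosphofructokinase commits glucose carbon to glycolysis and acts as a tetramer of liver, muscle and platelet-type subunits. The call was made in each of 26 alternative fits, with an adjusted p of at most 0.0069. With a sex term in the fit, the log2 fold change was 0.95. This term sets the cKO libraries against the female WT replicate 3, which held the lowest WT value, 2151.0.

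The other phosphofructokinase genes did not pass. Pfkp had 5933 ± 238.7 (SD, n = 5) and 6258 ± 320.6 (SD, n = 4) normalized counts in cKO and WT Tregs (log2 fold change -0.08, 95% interval -0.23 to 0.07), and Pfkm, the muscle-type subunit, 735.9 ± 45.8 and 837.3 ± 139.4 (-0.17, 95% interval -0.47 to 0.12). The share of Pfkl in the family, which does not depend on the scaling of a library, was larger in cKO Tregs. In counts per kb of exon, Pfkl held 47.6% to 50.2% of the family sum in the cKO libraries and 31.7% to 35.6% in WT libraries. It held 32.1% to 40.9% in CD25hi and 30.1% and 33.8% in CD25lo libraries. The cKO libraries did not overlap any other group in this share. The kb cover all annotated exons, 6.675 for Pfkl and 13.401 for Pfkp, whose longest protein-coding transcripts have 3730 and 4145 bases. Which gene holds the largest share depends on this length, and in cKO Tregs Pfkp had more normalized counts than Pfkl (means 5933 and 4151). Summed over the 3 genes, normalized counts were 10819 ± 514.1 (SD, n = 5) for cKO and 9512 ± 380.1 (SD, n = 4) for WT Tregs.

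**Figure D2:**
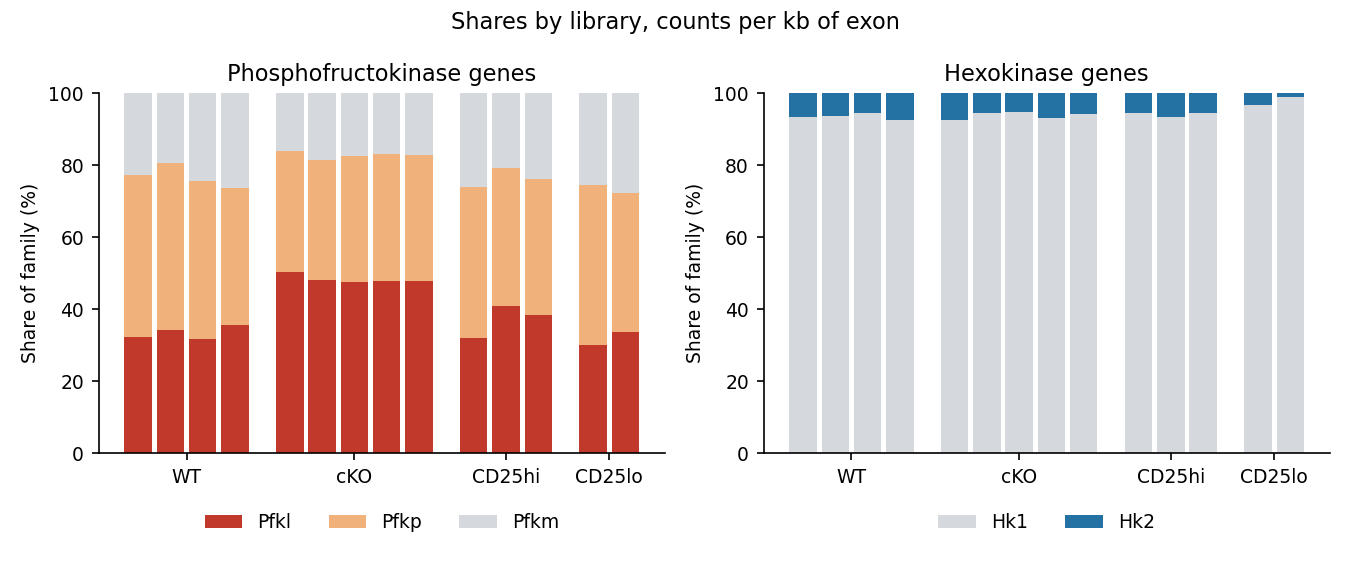
Share of each phosphofructokinase gene (left) and hexokinase gene (right) in its family, in percent of normalized counts per kb of exon, with 1 stacked bar per library. Pfkl makes up 47.6% to 50.2% in the 5 cKO libraries and at most 40.9% elsewhere, and Hk2 makes up 1.05% and 3.24% in the 2 CD25lo libraries and 5.18% to 7.45% in the others.

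The other members of upper glycolysis and of transport did not pass in cKO Tregs. Aldoc, the brain-type aldolase, showed the largest log2 fold change of its role, 1.34 ± 0.48 (SE, limma adjusted p = 0.146), with 211.1 to 384.5 normalized counts in cKO and 34.9 to 254.1 in WT libraries. The groups overlapped, and the lowest value was that of WT replicate 2. Aldoa, named after its values were seen, had 9812 ± 982.1 (SD, n = 5) and 8161 ± 562.1 (SD, n = 4) normalized counts (log2 fold change 0.26, adjusted p = 0.0642). Hk1 had a log2 fold change of 0.01 (95% interval -0.12 to 0.14) and Hk2 of -0.07 (95% interval -0.62 to 0.48). Of the transporters, Slc16a1, the monocarboxylate carrier MCT1, was the farthest from 0, at 1345 ± 347.1 (SD, n = 5) normalized counts for cKO and 1664 ± 266 (SD, n = 4) for WT Tregs (-0.33 ± 0.15 SE on the log2 scale, limma adjusted p = 0.292), and Slc2a1 and Slc2a3, the transporters GLUT1 and GLUT3, were at -0.02 (95% interval -0.22 to 0.18) and 0.08 (95% interval -0.07 to 0.22).

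The enzymes of fructose-2,6-bisphosphate, the strongest allosteric activator of phosphofructokinase, also did not pass. Pfkfb3 was at 2165.4, 2296.2, 2277.6, 2365.5 and 2247.0 normalized counts in cKO libraries and at 2637.5, 2682.0, 2626.8 and 2680.3 in WT libraries. All 5 cKO libraries lay below the 4 WT libraries, although the difference was small (log2 fold change -0.23 ± 0.08 SE, limma adjusted p = 0.126). Pfkfb4 had a log2 fold change of 0.33 ± 0.35 (SE, limma adjusted p = 0.713), with 423.4 normalized counts in WT replicate 4 and less than 300 in every other bulk library. In all, 1 member was higher and 4 were lower (Pfkfb3, Eno1, Eno3 and Pdha1) without overlap between the groups, whereas 4.92% and 3.62% of all genes tested were separated in this way.

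In lower glycolysis, Eno3 (chr11:70657202-70662513, plus strand, GRCm38) was at 619.6, 515.2, 632.7, 487.1 and 458.2 normalized counts in cKO and at 1007.9, 715.3, 927.1 and 1181.9 in WT libraries. Each cKO library lay below each WT library, with the smallest gap to WT replicate 2. The log2 fold change was -0.81 ± 0.16 (SE, limma adjusted p = 0.0066), and with a sex term in the fit, which sets the cKO libraries against the female WT replicate 3, it was -0.78 and did not pass (adjusted p = 0.468). Enolase makes phosphoenolpyruvate, and the ubiquitous gene Eno1 was at 2580 and 3077 normalized counts in cKO and WT Tregs (log2 fold change -0.25, 95% interval -0.43 to -0.07, adjusted p = 0.119). Pkm, the last step of glycolysis, had 13245 ± 1013 (SD, n = 5) and 15580 ± 951.3 (SD, n = 4) normalized counts (log2 fold change -0.24, adjusted p = 0.0813). It passed without WT replicate 4 (log2 fold change -0.28, adjusted p = 0.0411) and with median-centred libraries (adjusted p = 0.0424). With DESeq2 on reads recovered from the normalized counts, Pkm, Pfkfb3, Aldoa and Egln3 passed as well.

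**Figure D3:**
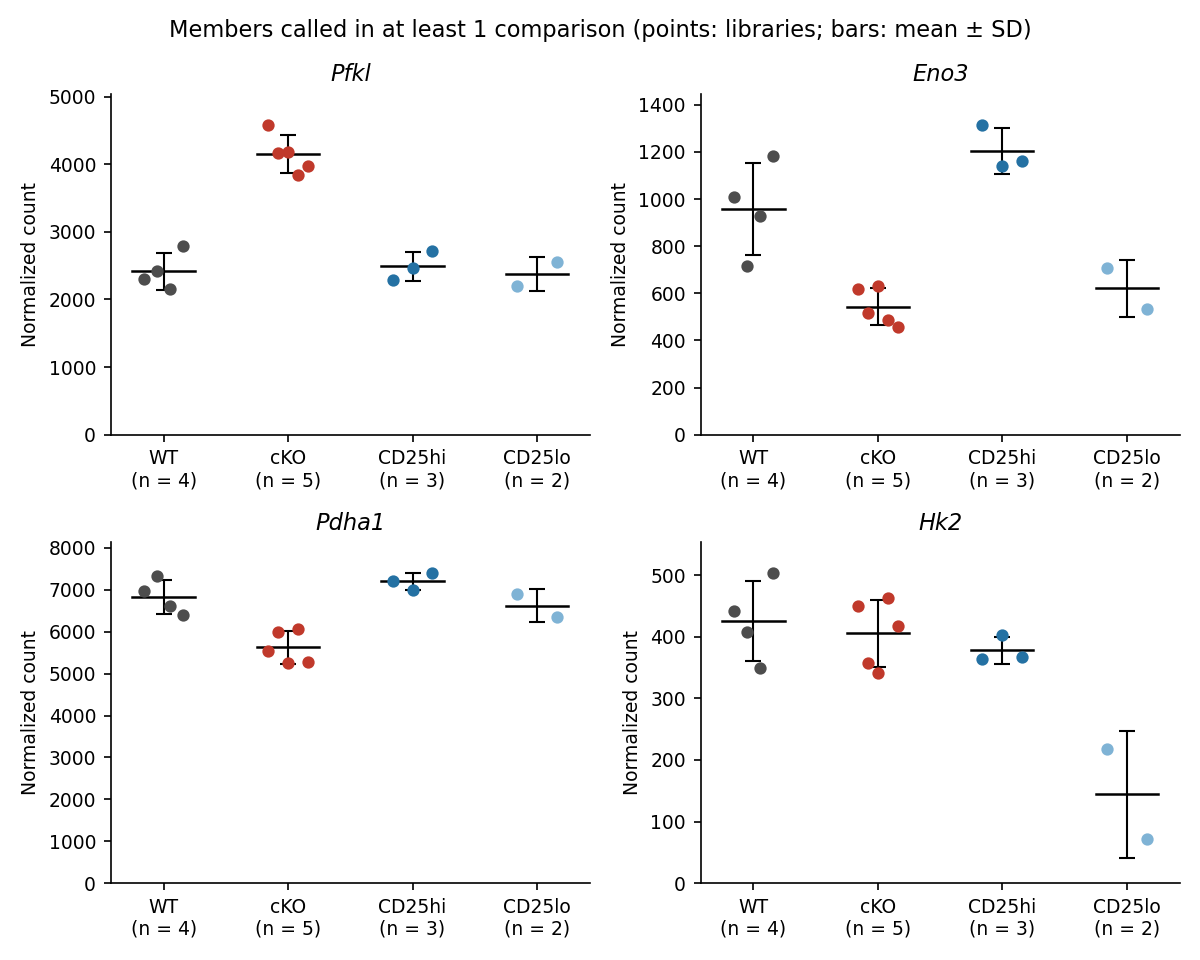
Normalized counts of Pfkl, Eno3, Pdha1 and Hk2 in each library, with points for libraries, horizontal bars for the mean of a group and error bars for its SD. Pfkl was at 3846.8 or more in cKO libraries and at most 2786.1 in all others, and Hk2 was at 217.3 and 71.7 in CD25lo libraries and 340.7 or more elsewhere.

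At the exit of the pathway, Pdha1 (chrX:160122209-160138413, minus strand, GRCm38), whose complex turns pyruvate into acetyl-CoA, was at 5534.2, 6000.5, 5242.3, 6058.2 and 5284.9 normalized counts in cKO and 6965.0, 7329.7, 6617.8 and 6405.8 in WT libraries. The groups did not overlap, and the female WT replicate 3, at 6617.8, lay above all cKO libraries. The log2 fold change was -0.28 ± 0.07 (SE, limma adjusted p = 0.0197). It did not pass with the sex term (log2 fold change -0.24, adjusted p = 0.750) or without any of cKO replicates 1, 3 and 5 and WT replicates 1 and 2 (adjusted p of up to 0.0659). The other members at this step were at log2 fold changes of -0.14 (Ldhb) to 0.08 (Ldha), and of the 10 genes of the pyruvate dehydrogenase complex listed separately, Pdha1 and its kinase Pdk1 aside, 0 passed limma (1 was higher at an unadjusted p under 0.05).

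The 5 genes of the pentose phosphate pathway had log2 fold changes of -0.14 to 0.08 in cKO Tregs, and 0 passed limma (0 at an unadjusted p under 0.05). Taldo1, the transaldolase that returns sugars to glycolysis, was the farthest from 0 (log2 fold change -0.14 ± 0.10 SE, limma adjusted p = 0.578, 95% interval -0.36 to 0.08). G6pdx, the entry enzyme that makes NADPH, was at 1586 ± 118.6 (SD, n = 5) and 1627 ± 174.8 (SD, n = 4) normalized counts (log2 fold change -0.03, 95% interval -0.28 to 0.22), and Tkt, the transketolase, at -0.04 (95% interval -0.19 to 0.11).

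Of the 4 hypoxia genes, 0 passed limma in cKO Tregs (1 was higher at an unadjusted p under 0.05). Bnip3, at 19.5 to 49.0 normalized counts in cKO libraries and 70.8, 64.4, 40.7 and 0.0 in WT libraries, had a lower mean in cKO Tregs but a fitted log2 fold change of 0.53 (95% interval -2.21 to 3.28), and its sign turned when single libraries were left out (-0.93 to 1.12). Egln3 was the farthest from 0, at 537.3, 517.1, 431.2, 585.1 and 644.4 normalized counts in cKO and 458.2, 230.4, 328.4 and 181.9 in WT libraries. The highest WT library lay among the cKO libraries, and the log2 fold change of 0.93 (standard error 0.30) had an adjusted p of 0.102, which was 0.0489 without WT replicate 1 (limma). Hif1a was at 11999 ± 1814 (SD, n = 5) and 11145 ± 2221 (SD, n = 4) normalized counts (log2 fold change 0.12, 95% interval -0.14 to 0.37).

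Hif1a and Gapdh also differed between bulk and sorted libraries, a difference that was not tested. Hif1a was at 10071.2 to 14170.5 in the cKO libraries and at 11140.5 to 13519.3 in WT replicates 1 to 3, but at 8178.6 in WT replicate 4 and 6890.7 to 8977.4 in the CD25-sorted libraries. WT replicate 4 was also the bulk library with the lowest immediate early level. Gapdh, the glyceraldehyde-3-phosphate dehydrogenase often used as a reference gene, was at 2429.2 to 3609.0 in bulk and 1908.8 to 2341.7 in sorted libraries, without overlap. The part of the immediate early level in these values was not tested across the sorts, and with this level as a term in the fit Aldoa, Pkm and Egln3 passed in cKO Tregs (adjusted p = 0.0283, 0.0487 and 0.0473 from limma).

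**Figure D4:**
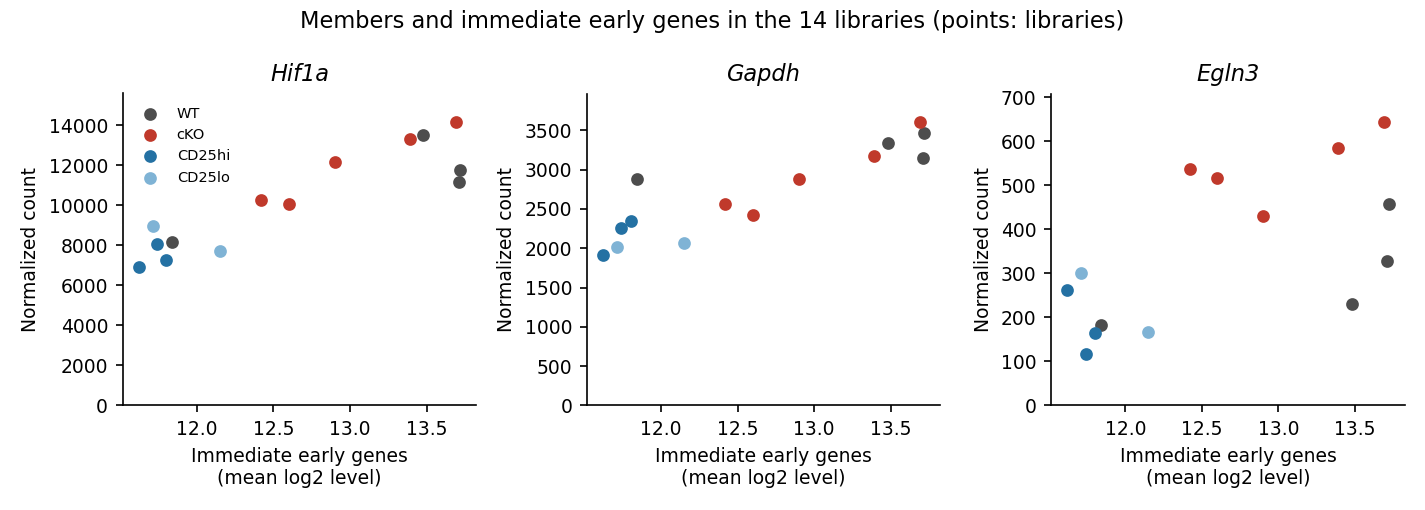
Normalized counts of Hif1a, Gapdh and Egln3 (vertical axes) against the log2 level averaged over 24 immediate early genes (horizontal axis), with 1 point per library. Sorted libraries and WT replicate 4 lie at 11.62 to 12.15 on the horizontal axis, and the other bulk libraries at 12.42 to 13.72.

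The second comparison asked how the same genes differ between CD25lo and CD25hi Tregs of the control genotype. Hk2 fell by 1.59 and Eno3 by 0.97 on the log2 scale in CD25lo Tregs, and 0 members rose (4 at an unadjusted p under 0.05 from limma, and 0 with edgeR and DESeq2 after adjustment). Of all genes tested, 1.01% passed as lower and 0.61% as higher. Il2ra, which encodes the CD25 of the sort, was at 14854 ± 243.8 (SD, n = 2) and 40165 ± 888.6 (SD, n = 3) normalized counts. The median log2 fold change of the 36 members was -0.05, and 0.00 over all genes tested.

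Hk2 (chr6:82725025-82774454, minus strand, GRCm38), an inducible hexokinase that rises in activated T cells and binds mitochondria, was at 364.0, 402.3 and 367.3 normalized counts in CD25hi and at 217.3 and 71.7 in CD25lo libraries. Both CD25lo libraries lay below every other library of the series, and they differed from each other as well. The log2 fold change was -1.59 ± 0.36 (SE, limma adjusted p = 0.0281), and without CD25lo replicate 2, when the lone CD25lo library is assumed to vary like the other groups, it was -0.79 (adjusted p = 0.349). It also did not pass without any 1 of the 3 CD25hi libraries (adjusted p of up to 0.0693) or with edgeR (adjusted p = 0.0656). Nor did it pass with the replicate number as a block (limma adjusted p = 0.0685) or with only the CD25hi and CD25lo libraries in the fit (limma adjusted p = 0.205). Hk1 was at 9456 ± 249.3 (SD, n = 2) and 8737 ± 593.9 (SD, n = 3) normalized counts (log2 fold change 0.12, 95% interval -0.06 to 0.29), so summed hexokinase counts were 9601 ± 146.3 and 9115 ± 573.7.

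Eno3 was at 1316.3, 1138.8 and 1159.8 normalized counts in CD25hi and at 707.4 and 533.9 in CD25lo libraries. The groups were apart, and the CD25lo values lay near those of cKO libraries, at 458.2 to 632.7. The log2 fold change was -0.97 ± 0.21 (SE, limma adjusted p = 0.0263), and it did not pass without CD25hi replicate 1, CD25hi replicate 3 or CD25lo replicate 2 (adjusted p = 0.0848, 0.0606 and 0.274). Eno3 was the member that passed in the same direction in both comparisons, which share no library but come from the same fit.

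Other members differed less between the sorted groups. Mpc1, a subunit of the carrier that brings pyruvate into mitochondria, was at 345.3, 341.2 and 229.1 in CD25hi and 177.3 and 157.4 normalized counts in CD25lo libraries (log2 fold change -0.84 ± 0.35 SE, limma adjusted p = 0.278). G6pdx had a log2 fold change of -0.43 ± 0.16 (SE, limma adjusted p = 0.226) and passed without CD25lo replicate 1 (log2 fold change -0.72, adjusted p = 0.0499). All 4 transporters had negative values, of -0.33 (Slc16a1, adjusted p = 0.518) to -0.12 (Slc2a3), Pfkfb4 was at -0.39 (adjusted p = 0.774), and of the hypoxia genes Egln3 was at 0.39 (adjusted p = 0.739) and Bnip3 at 60.0, 0.0 and 63.8 in CD25hi and 31.8 and 85.8 normalized counts in CD25lo libraries. Pdk1, the kinase that inhibits pyruvate dehydrogenase, was at 4490.2 to 5630.7 in CD25hi and 7045.9 and 6589.5 in CD25lo libraries, a log2 fold change of 0.41 (adjusted p = 0.167). Groups of 3 and 2 libraries did not overlap for 5 members that were higher and 9 that were lower in CD25lo Tregs, compared with 12.9% and 11.6% of all genes tested.

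**Figure D5:**
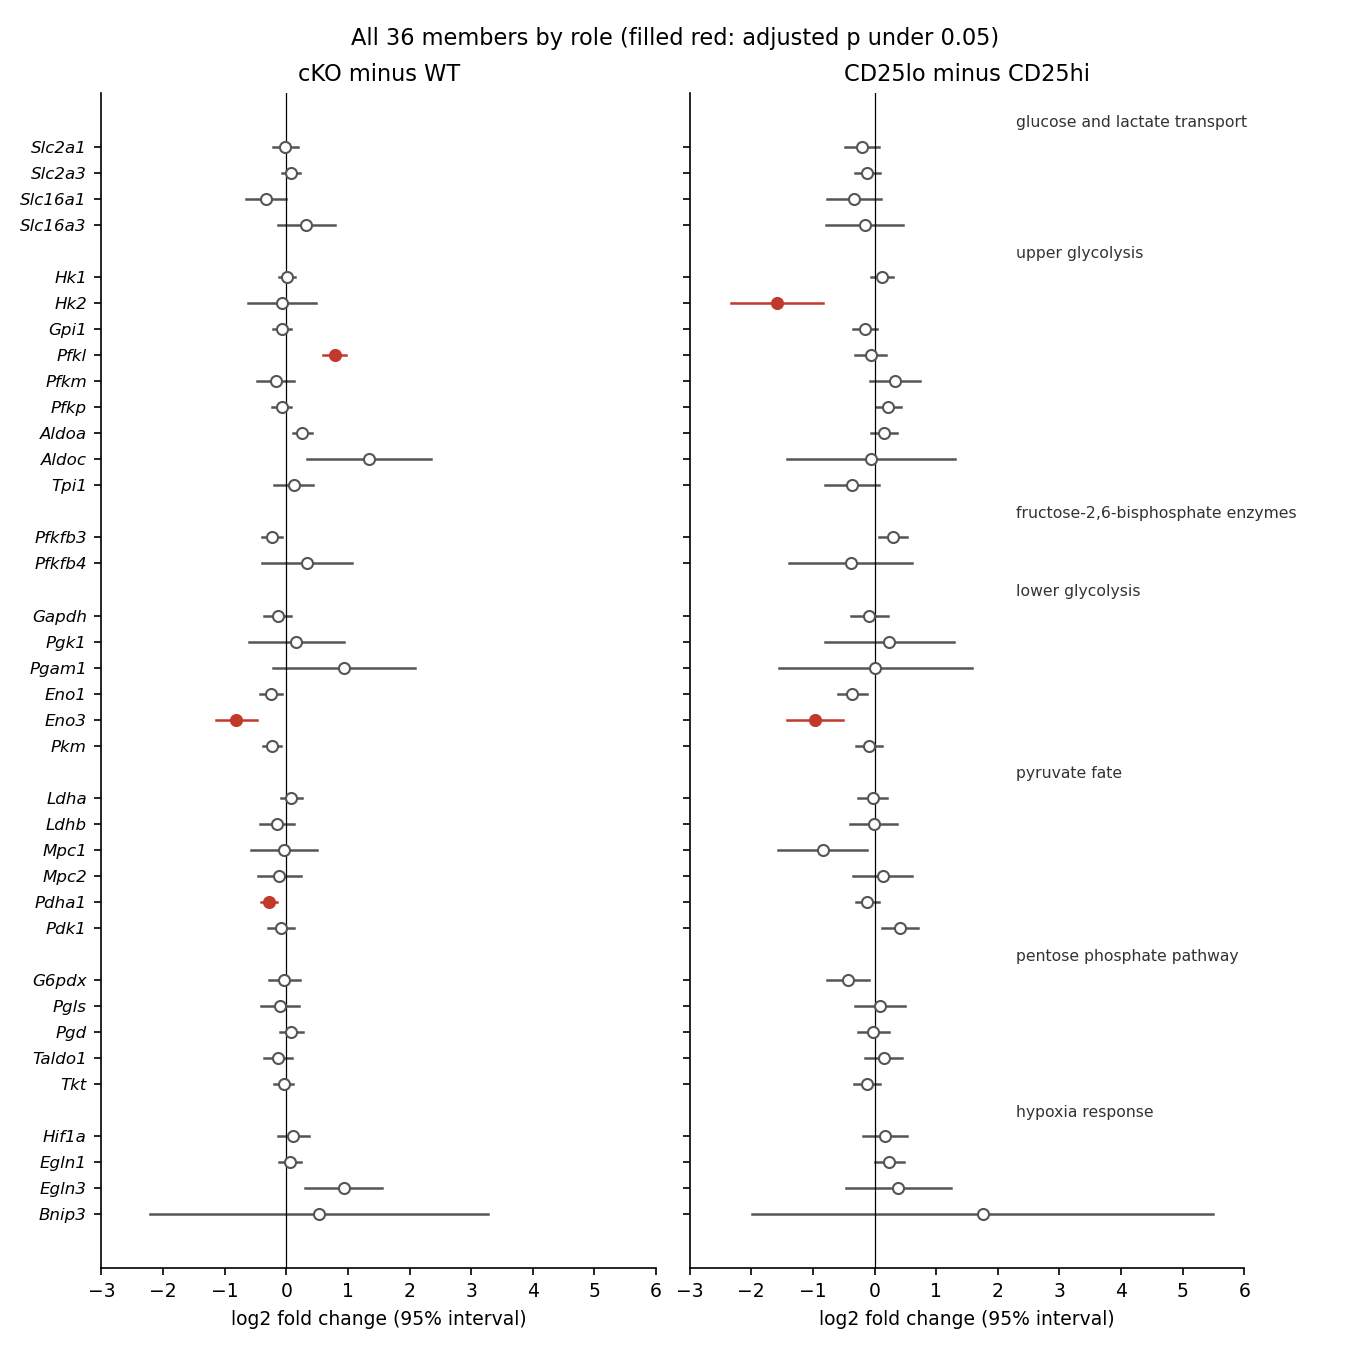
Log2 fold change (horizontal axis, with 95% intervals from limma) of each of the 36 genes in cKO minus WT Tregs (left, n = 5 and 4 libraries) and CD25lo minus CD25hi Tregs (right, n = 2 and 3 libraries), grouped by role. Filled red points passed an adjusted p of 0.05: Pfkl, Eno3 and Pdha1 on the left, and Hk2 and Eno3 on the right.

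The contrast of the comparisons was tested directly as the log2 fold change of cKO against WT Tregs minus that of CD25lo against CD25hi Tregs. Pfkl passed, with a difference of 0.85 (standard error 0.15, 95% interval 0.54 to 1.16, adjusted p = 0.0095 from limma), where 1.03% of all genes tested passed in either direction. Its log2 fold change in CD25lo Tregs was -0.07 (95% interval -0.31 to 0.18), with 2285.4, 2466.0 and 2710.9 normalized counts in CD25hi and 2201.3 and 2553.4 in CD25lo libraries. Without CD25lo replicate 1 the difference was 0.74 (adjusted p = 0.0508). Hk2 (difference 1.52, adjusted p = 0.109) and Pdha1 (difference -0.16, adjusted p = 0.562), which also passed in 1 comparison each, were not shown to differ between them. For Hk2 this rested on the CD25lo pair, as the difference was 2.31 (adjusted p = 0.0074) without CD25lo replicate 1 and 0.73 without CD25lo replicate 2. Pfkfb3 had a difference of -0.53 (limma adjusted p = 0.0611), which passed with DESeq2 (adjusted p = 0.0046), with a filter of 100 normalized counts, the immediate early level as a term or median-centred libraries (adjusted p = 0.0445, 0.0377 and 0.0460), and without CD25hi replicate 3 or CD25lo replicate 1 (adjusted p = 0.0425 and 0.0494).

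Genes around the pathway were read from lists chosen by function. Their calls are from the main fit, and single genes of these lists are not given here with a sex term. That term sets the cKO libraries against the female WT replicate 3. With it, 13 of all genes tested passed as higher and 9 as lower in cKO Tregs, compared with 332 and 240 in the main fit. Adpgk, an ADP-dependent glucokinase that phosphorylates glucose by another route than the hexokinases, was the gene that passed among 14 tested of 26 other glycolytic isoforms. It was at 2402.9, 2587.3, 2157.9, 2266.4 and 2091.2 normalized counts in cKO and 4047.4, 3823.2, 4494.2 and 4624.7 in WT libraries. The groups were far apart (log2 fold change -0.88 ± 0.09 SE, limma adjusted p = 1.7e-05), and in CD25lo Tregs the value was -0.14 (adjusted p = 0.672). The other 13 isoforms did not pass in either comparison.

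Of 18 regulators of glucose use, 2 were lower in cKO Tregs and 1 was lower in CD25lo Tregs, compared with 1.48% and 1.01% of all genes tested. Myc, which induces many glycolytic genes, changed by -0.54 in the first and by -0.57 in the second comparison on the log2 scale (adjusted p = 7.6e-04 and 0.0116 from limma). Txnip, an arrestin-like protein that removes glucose transporters from the cell surface, was at 17560 ± 1324 (SD, n = 5) for cKO against 21723 ± 1178 (SD, n = 4) normalized counts for WT Tregs (log2 fold change -0.31 ± 0.08 SE, limma adjusted p = 0.0328).

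Of 22 further hypoxia genes, Epas1, which encodes HIF-2α, was higher in cKO Tregs (log2 fold change 1.74 ± 0.44 SE, limma adjusted p = 0.0332), whereas P4ha1, a collagen prolyl hydroxylase, and Ddit4, an inhibitor of mTORC1, were lower (-0.37 and -0.58). Ndrg1, a stress-induced gene, fell in CD25lo Tregs (log2 fold change -1.08, adjusted p = 0.0042). In the glycogen and serine branches, with 16 genes tested, the phosphoglucomutase gene Pgm2 rose in cKO Tregs to 2189 ± 141.4 (SD, n = 5) from 1367 ± 148.9 (SD, n = 4) normalized counts (log2 fold change 0.68, adjusted p = 0.0010), while Pgm1 fell by 0.57 on the log2 scale (adjusted p = 0.0373). Shmt1 and Shmt2, the cytosolic and mitochondrial enzymes that pass a carbon from serine to folate, and Ugp2, which makes UDP-glucose, were lower in CD25lo Tregs (log2 fold changes -1.61, -0.50 and -0.59, adjusted p = 0.0016, 0.0227 and 0.0385). None of 23 TCA cycle genes and none of 9 other pentose phosphate genes passed limma in either comparison (at an unadjusted p under 0.05, these were 1 and 1 genes in the first and 2 and 0 in the second).

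The promoters of the members were searched for a sequence. The choice of genes did not use its letters, but it used their roles. Genes of the hypoxia response and genes known to be regulated by HIF are among the members. The share with this sequence is therefore not independent of the choice. The letters ACGTG, the core of the hypoxia response element and, within CACGTG, of the E-box bound by MYC and related factors, were searched on both strands from 250 bases before to 50 after the start of each gene (RefSeq, GRCm38.p6). Of the 35 members with an entry, 19 held ACGTG (54.3%) and 6 held CACGTG (17.1%), compared with 21.8% and 8.1% of 27025 genes. These 27025 are all genes with an entry, whether or not they were expressed in Tregs, so the sets are unlike in expression. Windows are printed for 4 members with known HIF regulation, in transcript direction. A core of each is in capitals, written CACGT where it lies on the opposite strand. Hk2, Ldha and Pgk1 held further cores, which are in lower case or outside the windows. In Ldha, the c before the capitals completes CACGTG, and the last letters of its window, cacgt, are another core.
Slc2a1, chr4:119108697-119108726, plus strand: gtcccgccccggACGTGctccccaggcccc
Hk2, chr6:82774489-82774518, minus strand: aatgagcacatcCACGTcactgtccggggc
Ldha, chr7:46845745-46845774, plus strand: ggcccagcctacACGTGggttcccgcacgt
Pgk1, chrX:106186938-106186967, plus strand: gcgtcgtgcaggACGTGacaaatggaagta

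The core in capitals lay 36, 52, 47 and 150 bases before the start in Slc2a1, Hk2, Ldha and Pgk1. Of these genes, Hk2 passed in CD25lo Tregs and the other 3 passed in neither comparison. Matches are descriptions of these letters, and factor binding was not measured.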

How the data were processed

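The authors aligned single-end reads of 50 bases to GRCm38 with STAR 2.7.2b and deposited, per gene and library, a signal, here called normalized counts: reads over the size factor of that library from DESeq2 1.24.0, rounded to 0.1. The counter and its treatment of reads that map to several places are not given in the sources used here. The authors also deposited variance-stabilized log2 values, log2 fold changes, fold changes as a ratio, p-values and the GC content as a percent, none of which was used. Reads were recovered from the steps between low values, which gave whole numbers for 100.0% of values under 3000 normalized counts within 0.055. Groups were taken from the labels.

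Group means over all 14 libraries were fitted to log2(normalized count + 1) with limma-trend (limma 3.58.1, R 4.3.3) for genes that reached 10 normalized counts in 2 or more libraries, with Benjamini-Hochberg adjustment over all 16241 of them. Fold changes are differences of mean log2 values, which in low genes can differ from the ratio of the means, also in sign, where a library is at or near 0. The fit was tested on simulated data. Alternatives were edgeR 4.0.16 and DESeq2 1.42.0 on recovered reads, pseudocounts of 0.5 and 5, no filter or one of 100 normalized counts, only the groups compared, median-centred libraries, terms for replicate number, sex or immediate early level, and each library left out. The members and lists were chosen with earlier results of these data known. Full statistics are given for members that passed and for the member with the largest change per role with a mean of at least 100, and genes of other lists are named where they passed, up to 4 per list; other members were named after their values were seen. Treg, B cell, erythroid and platelet, CD8 T and NK cell and proliferation markers were read in the same way. Of 6, 2, 6 and 16 genes tested in the last 4 lists, 0 passed limma in either comparison. At an unadjusted p under 0.05 from limma, 7 of the 16 proliferation genes were lower in CD25lo Tregs, compared with 1128 of all 16241 genes tested. At most 2 genes of a list had such a p in any other direction. The median log2 fold change of the proliferation genes in CD25lo Tregs was -0.33. Of 9 Treg genes, Ikzf2 was higher and Il2ra lower in cKO Tregs, while Foxp3, Ikzf2, Il2rb, Tnfrsf18 and Il2ra were lower in CD25lo Tregs. Of the immediate early genes, Dusp2 was lower in cKO and Nr4a3 in CD25lo Tregs. Tables were handled with python 3.11.15 (numpy 2.4.6, pandas 2.3.3) and the R package data.table, version 1.17.8, and figures drawn with matplotlib 3.10.9.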

Additional observations from a re-analysis of the deposited data

Results flagged for a closer look

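The log2 fold change of Pfkl differed between the comparisons: it was 0.78 in cKO against WT Tregs and -0.07 in CD25lo against CD25hi Tregs, a difference of 0.85 that passed the test of the difference itself (adjusted p = 0.0095 from limma). Among 72 groups of 4 or 5 libraries, 36 genes in cKO and in WT Tregs, 0 held a library far from the others by Dixon's test, where chance gives about 1 in 20.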

How the results depend on the processing

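Of the 3 calls in cKO Tregs, that of Pfkl was made in all 26 alternatives (log2 fold change 0.73 to 0.95). With 1 member called higher and 2 lower in cKO Tregs, the counts were 3 and 4 with DESeq2 3 and 3 with the immediate early level as a term, 1 and 3 with median-centred libraries, 2 higher with a filter of 100 normalized counts, and 0 lower with a sex term in the fit. Leaving out single libraries gave 1 to 2 higher and 1 to 3 lower, the 3 without WT replicate 4. In CD25lo Tregs, 2 members called lower became 1 with edgeR under either scaling and 1 with only the groups compared, and 0 to 3 with single libraries left out, while 0 members were higher under every alternative. The difference between the comparisons, passed by 1 member, was passed by 2, Pfkl and Pfkfb3, with DESeq2, with the filter of 100, with the immediate early term and with median-centred libraries, and by 1 to 2 with single libraries left out. Replicate numbers are shared between groups. Libraries with the same number were not alike in their deviations from the group means (correlations -0.32 to -0.10 between cKO and WT Tregs, and 0.02 and -0.06 between the sorted groups). These correlations cannot show whether CD25hi and CD25lo libraries came from the same mice. With the replicate number as a block, 1 member was higher and 1 lower in cKO Tregs, 0 were lower in CD25lo Tregs and 0 passed the difference. With median-centred libraries, the genes called in cKO Tregs split into 258 higher and 283 lower, compared with 332 and 240 in the main fit. With a sex term in the fit, they were 13 higher and 9 lower. The causes were not tested. Depth limits Bnip3 and Pgam1, with means under 100 normalized counts, and the pair of CD25lo libraries limits every value of that group.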
